A study of Mus musculus with 16 samples.

Results

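Transcripts of 10 well-known direct targets of the transcription factor p53 were followed in hematopoietic stem cells (HSCs) of mouse bone marrow. The genes were Cdkn1a, Mdm2, Ccng1, Bax, Bbc3, Phlda3, Zmat3, Trp53inp1, Aen and Eda2r, chosen by name among the 25239 gene symbols of the count table. All 10 were found there and all 10 passed the filter on low counts. The cells came from mice aged 4 to 6 months, either with a knockout of Selp, the gene of the adhesion receptor P-selectin (KO), or with intact Selp (WT). Bulk RNA-seq was made from freshly sorted cells (2 KO and 3 WT libraries), from cells cultured with vehicle (3 KO and 3 WT) and from cells cultured with PSGL-1, a ligand of P-selectin, at 125 ng/mL for 24 hours (3 KO and 2 WT). The culture medium of both genotypes was StemSpan with serum and 3 cytokines: SCF, IL-11 and Flt-3 ligand. The labels give neither the kind of Selp allele nor the duration of the vehicle culture. They also leave unsaid if each replicate was its own mouse or a portion of 1 pool, so every p-value measures only the spread between these libraries, which may be technical.

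As background, p53 is held at a low level in unstressed cells by Mdm2, itself a p53 target, which marks p53 for destruction. DNA damage and other stresses release p53, which then binds response elements near its target genes and raises their transcription. The targets are grouped here into arms: cell cycle arrest (Cdkn1a, which encodes the cyclin-dependent kinase inhibitor p21), feedback on p53 (Mdm2 and Ccng1), apoptosis (Bax, Bbc3, Aen) and a varied group of other stress genes (Phlda3, Zmat3, Trp53inp1, Eda2r). In HSCs, p53 and p21 are known for restraining proliferation, and Cdkn1a can also be raised by signals that do not pass through p53.

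Library totals lay between 12590539 and 24690824 counts, so that 3 counts, taken as the detection floor, equalled 0.122 to 0.238 CPM, the count scaled to the library total. The floor covers counting error only. The library WT PSGL-1 replicate 1 was sparse, with 9035 detected genes against 11101 to 13480 in the other 15. Selp lay between 0 and 12.4 CPM in KO libraries and between 16.8 and 183 CPM in WT libraries, every KO library below every WT one, although the log2 fold changes of KO over WT (-5.86 fresh, -3.36 vehicle, -4.95 PSGL-1) were not called (adjusted p by edgeR 1.00, 1.00 and 0.765). Among markers of HSCs, Kit, Ly6a, Procr, Mecom, Hlf and Meis1 had counts in all 16 libraries, Fgd5 in 15 and Slamf1 in 13. Cd48, a marker that is low in HSCs, had counts in 10 libraries, at up to 9.57 CPM. The T cell genes Cd3e, Cd3d and Cd8a, the B cell gene Ms4a1, the granulocyte gene Ly6g and 4 globin genes had 0 counts in every library. How reads mapping to several places were counted is not stated. The 0 counts of globin genes therefore do not show that their RNA was absent. Other markers of mature lineages were present: Lyz2 (80.8 to 643 CPM) and Cd79b (3.81 to 62.0 CPM) in all 16 libraries, Nkg7 and Epor in 15, Klf1 and Gata1 in 14, and Mpo in 6, at up to 231 CPM. Itgam had counts in 8 libraries, Elane and Csf1r in 7, S100a8 and S100a9 in 5 and Cd4 in 4. Of the megakaryocyte markers, Itga2b (331 to 1155 CPM), Pf4 (26.1 to 380 CPM), Vwf, Itgb3 and Gp9 had counts in all 16, and Gp6 in 0.

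A p53 response element is built of decamers, motifs of 10 bases, and a full element holds a pair of them. The stretches below are shown because they hold the p53 decamers found in the starts of the members, 250 bases before to 50 after each annotated start, taken from RefSeq on GRCm38.p6. For 8 of the 10 members such windows were given, 12 in all, and 6 windows of 5 members held at least 1 decamer. Of all 32851 windows of the genome, 8.36% held 1. Each sequence runs 5′ to 3′ on the strand of its gene, and capitals mark decamers or a full element of 20 bases with at most 1 mismatch.
Cdkn1a, chr17:29090896-29090957, plus strand: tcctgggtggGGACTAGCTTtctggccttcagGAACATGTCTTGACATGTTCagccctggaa
Ccng1, chr11:40755452-40755491, minus strand: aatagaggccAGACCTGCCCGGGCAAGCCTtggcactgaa
Bax, chr7:45467080-45467109, minus strand: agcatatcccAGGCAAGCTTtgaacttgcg
Mdm2, chr10:117710925-117710954, minus strand: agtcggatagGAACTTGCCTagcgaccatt
Aen, chr7:78895927-78895956, plus strand: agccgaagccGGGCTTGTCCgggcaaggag

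Full elements with at most 1 mismatch occurred in 29 of the 32851 windows (0.0883%), and the windows of Cdkn1a and Ccng1 were among them. In Cdkn1a the element begins at position -51 from the annotated start, and a further decamer lies at -73. This start is the upstream one of Cdkn1a (chr17:29090979-29100722), and the window at its second start held no decamer. The windows of Phlda3, Bbc3 and Eda2r held none, which says only that these letters are not in these windows. The match describes sequence and does not show binding in these cells.

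Per transcript length, Bax was the most abundant member in both states. Its level, in TPM, the unit that corrects for exon length, averaged 432 ± 98.2 in cultured cells of both genotypes and both cultures (SD, n = 11) and 234 ± 23.9 in fresh cells (SD, n = 5). Cdkn1a was the second in cultured cells at 139 ± 54.5 TPM but the seventh in fresh cells at 11.6 ± 1.88 TPM. Its cultured libraries (86.1 to 225 TPM) did not overlap those of Bax (296 to 661 TPM), but overlapped those of Ccng1 (43.3 to 144 TPM). After Cdkn1a in cultured cells came Ccng1 at 85.4 TPM, Phlda3 at 62.5 TPM, Aen at 40.7 TPM, Bbc3 at 38.1 TPM and Mdm2 at 36.3 TPM, and neighbours in that order overlapped. Trp53inp1, Zmat3 and Eda2r stayed under 4 TPM on average in culture, at 3.74, 2.55 and 1.64 TPM.

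**Figure D1:**
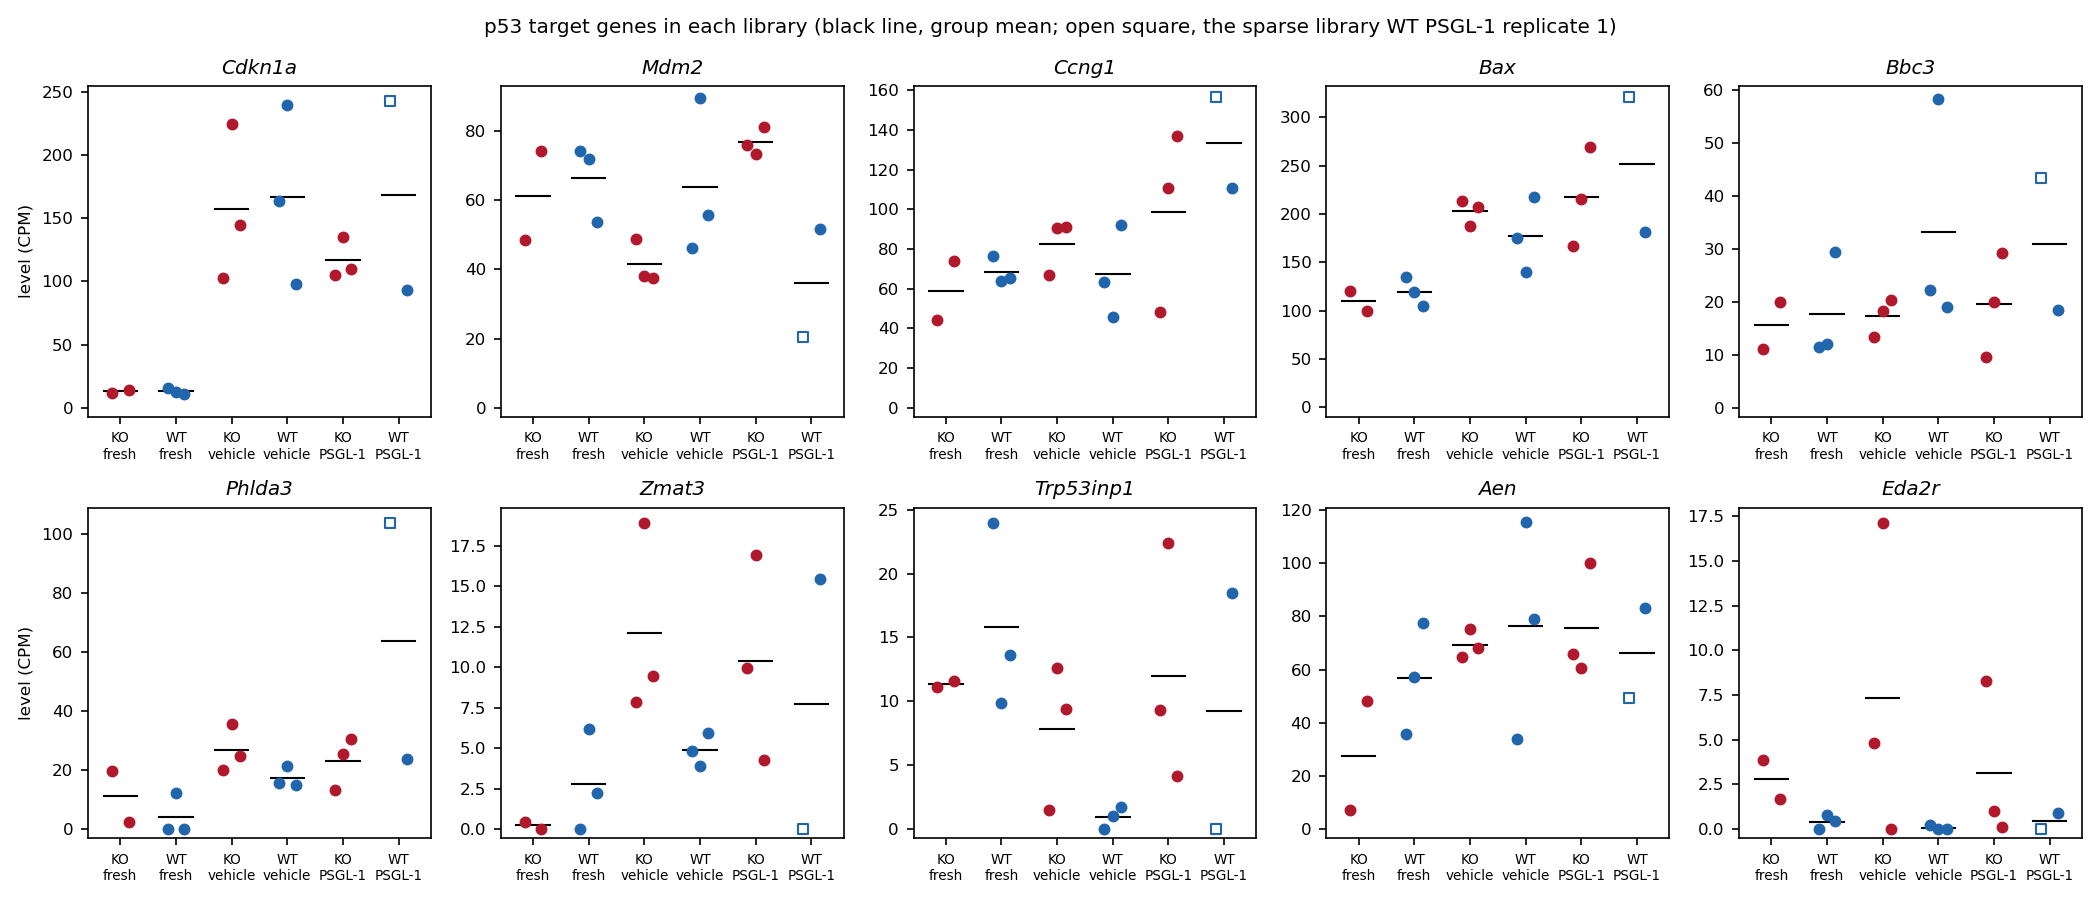
Level of each member in CPM (vertical axes, each panel with its own scale) in each library of the 6 groups, with KO in red and WT in blue, black lines as group means and an open square for the sparse library. Cdkn1a lies at 11.02 to 15.3 CPM in the 5 fresh libraries and at 93.5 CPM or above in all 11 cultured ones, while Mdm2, Ccng1 and Bbc3 overlap between fresh and cultured cells.

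The arrest gene Cdkn1a was far higher in cultured than in fresh HSCs of both genotypes. It had 103, 225 and 145 CPM in KO vehicle cultures, against 11.5 and 14.2 CPM in fresh KO cells. In WT, it had 164, 239.7 and 97.7 CPM in vehicle cultures, against 15.3, 12.5 and 11.02 CPM in fresh cells. Every vehicle library lay above every fresh one, and the lowest cultured value was several times the highest fresh value. By edgeR's quasi-likelihood test over 14124 genes with Benjamini-Hochberg adjustment, the log2 fold change of vehicle over fresh was 3.65 in KO (SE 0.50, adjusted p = 0.00139), a 12.6-fold rise. In WT it was 3.78 (SE 0.43, adjusted p = 0.000215), a 13.7-fold rise. The culture responses of KO and WT differed by -0.13 on the log2 scale (SE 0.58, adjusted p = 1.00), an estimate too wide to show that they were alike. Over both genotypes Cdkn1a had the seventeenth smallest p of all genes tested. The call held in WT and over both genotypes in all alternatives run. In KO it was lost with limma voom and library weights (adjusted p = 0.128).

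Bax, which permeabilises the outer mitochondrial membrane in apoptosis, was the other member that rose in culture, by a smaller step. It had 213, 187 and 207 CPM in KO vehicle cultures, against 119.9 and 100.2 CPM in fresh KO cells. In WT vehicle cultures it had 175, 140.2 and 218 CPM, against 135, 119 and 105 CPM in fresh WT cells. All 6 vehicle libraries lay above all 5 fresh ones. Over both genotypes the log2 fold change was 0.79 (SE 0.20, adjusted p = 0.0263 by edgeR), whereas neither genotype alone passed, at 0.90 in KO (SE 0.30, adjusted p = 0.177) and 0.67 in WT (SE 0.26, adjusted p = 0.291). This call was lost, with adjusted p between 0.0540 and 0.0892, when any 1 of 7 libraries was left out: KO fresh replicate 1 or 2, KO vehicle replicate 1 or 3, WT fresh replicate 2 or 3, or WT vehicle replicate 3. When PSGL-1 cultures were added to the vehicle ones, a comparison chosen after the data were seen, the log2 fold change was 0.93 (SE 0.18, adjusted p = 0.00445) and held in all 23 alternatives.

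Of the 10 members, 1 rose and 0 fell in KO on vehicle culture, where 1.77% of all tested genes were called and 1.23% rose. In WT likewise 1 rose and 0 fell, where 1.64% were called and 1.23% rose. Over both genotypes 2 rose and 0 fell, where 6.48% of all genes were called, 4.18% higher and 2.3% lower. The libraries of these 2 members did not overlap over both genotypes, where 3.84% of all genes lay wholly higher and 5.72% wholly lower. With both cultures against fresh cells again 2 rose and 0 fell, where 10.2% were called, 5.54% higher and 4.67% lower. There 2.03% of all genes lay wholly higher and 3.46% wholly lower. The members' median log2 fold change was 1.07 in KO and 0.60 in WT, beside -0.02 and -0.07 over all tested genes. Libraries did not overlap in 5 members in KO, all higher in culture, where 15.3% of all genes lay wholly higher and 20.3% wholly lower. In WT 3 members lay wholly higher and 1 wholly lower, where 8.38% and 14.8% of all genes did so. In these bulk samples a change in RNA per cell cannot be told apart from a change in the cells present. The sum of the 9 listed HSC genes, Cd48 included, lay between 1041 and 1781 CPM in the 11 cultured libraries. In the 5 fresh ones it lay between 1556 and 2116 CPM, so that the ranges overlapped. Within WT, however, the sum was lower in all vehicle libraries (1047 to 1390 CPM) than in all fresh ones (1698 to 2025 CPM). Within KO, vehicle libraries (1675 to 1725 CPM) lay inside the range of fresh ones. Cd48, the marker that is low in HSCs, made up at most 9.57 CPM of the sum. Summed granulocyte and monocyte markers, of which 9 of 10 had counts somewhere and Ly6g had none, lay between 82.3 and 295 CPM in cultured and between 500.0 and 917 CPM in fresh libraries. Summed lymphocyte markers (B, T, NK), 4 of 10 at 0 everywhere, lay between 9.20 and 77.7 CPM in cultured and between 83.6 and 141 CPM in fresh libraries, and did not overlap either. Erythroid markers, 4 of 10 (the globin genes) at 0 everywhere, lay between 12.1 and 113 CPM in cultured and between 97.1 and 259 CPM in fresh libraries, with some overlap. In KO alone, vehicle libraries (12.1 to 39.2 CPM) lay below fresh ones (116.6 and 117.1 CPM), while WT vehicle and fresh libraries overlapped. Megakaryocyte and endothelial marker sums overlapped as well, at 866 to 2085 and 223 to 421 CPM in cultured and at 1131 to 1814 and 328 to 498 CPM in fresh libraries. In KO alone, endothelial sums of vehicle libraries (323 to 384 CPM) lay below those of fresh ones (442 to 498 CPM), while in WT they overlapped. The part of these markers in the members' levels was not tested.

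**Figure D2:**
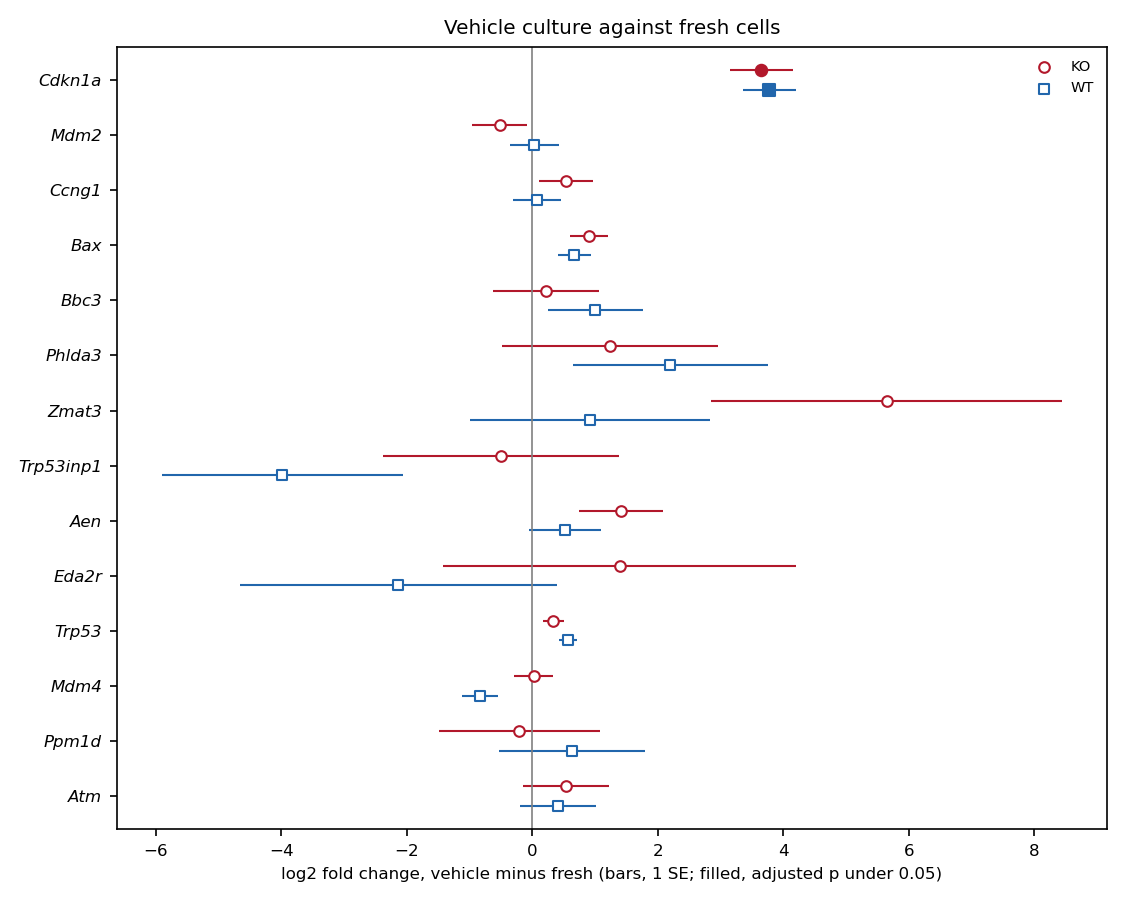
Log2 fold change of vehicle culture over fresh cells (horizontal axis) for the 10 members and for Trp53, Mdm4, Ppm1d and Atm, with KO as red circles above WT as blue squares, bars of 1 SE and filled symbols for an adjusted p under 0.05. Only Cdkn1a is filled, at 3.65 in KO and 3.78 in WT.

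The feedback genes, unlike Cdkn1a, did not pass the test. Mdm2, the ubiquitin ligase of p53, had 48.9, 38.1 and 37.5 CPM in KO vehicle cultures, against 48.5 and 74.3 CPM in fresh KO cells. WT cells had 46.1, 89.7 and 55.8 CPM of Mdm2 in vehicle cultures, against 74.3, 71.9 and 53.8 CPM in fresh cells. Groups overlapped in both genotypes, with log2 fold changes of -0.52 in KO (SE 0.44, adjusted p = 0.742) and 0.03 in WT (SE 0.39, adjusted p = 1.00). Ccng1, which encodes cyclin G1, a partner of a phosphatase that acts on Mdm2, had a log2 fold change of 0.54 in KO (SE 0.44, adjusted p = 0.726) and 0.08 in WT (SE 0.38, adjusted p = 0.994). With PSGL-1 cultures added, the comparison chosen after the data were seen, Ccng1 was at 0.61 (SE 0.27, unadjusted p = 0.0361, adjusted p = 0.165 by edgeR). Mdm2 was at -0.23 there (SE 0.26, adjusted p = 0.692). Mdm2 and Ccng1 both have a p53 decamer in their promoter window, Ccng1 as part of a full element, and neither passed the test in culture. The decamer of Mdm2 stood alone, with 5 mismatches in the best full element of its window. At least 1 decamer was found in 8.36% of all windows. The errors of these log2 fold changes do not show that either gene stayed unchanged.

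The remaining genes of the apoptosis arm, Aen and Bbc3, did not pass the test either. Aen, a nuclease that promotes apoptosis, had 64.7, 75.3 and 68.2 CPM in KO vehicle cultures, against 7.06 and 48.1 CPM in fresh KO cells. All KO vehicle libraries lay above the fresh ones, with a log2 fold change of 1.42 (SE 0.67, adjusted p = 0.432). In WT the groups overlapped and the log2 fold change was 0.53 (SE 0.57, adjusted p = 0.816). Without KO fresh replicate 2, which leaves the lone library with 7.06 CPM as the fresh KO group, Aen passed in KO at a log2 fold change of 3.28 (adjusted p = 0.0331) and over both genotypes at 1.90 (adjusted p = 0.0175). Bbc3, which encodes the BH3-only protein PUMA, lay between 13.4 and 20.3 CPM in KO vehicle cultures and between 10.99 and 20.0 CPM in fresh KO cells. In WT it lay between 18.9 and 58.3 CPM in vehicle cultures and between 11.4 and 29.3 CPM in fresh cells. Its log2 fold changes were 0.21 in KO (SE 0.84, adjusted p = 0.996) and 1.00 in WT (SE 0.76, adjusted p = 0.651).

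Phlda3, a repressor of Akt signalling, was low and uneven in fresh cells. It had 19.9, 35.6 and 24.9 CPM in KO vehicle cultures, against 19.8 and 2.51 CPM in fresh KO cells. In WT it had 15.5, 21.2 and 15.03 CPM in vehicle cultures, against 0, 12.2 and 0 CPM in fresh cells. Every vehicle library lay above every fresh library of its own genotype, but the log2 fold changes of 1.24 in KO (SE 1.73, adjusted p = 0.916) and 2.20 in WT (SE 1.55, adjusted p = 0.606) had wide errors. Without WT fresh replicate 2, where only libraries with 0 counts stand for fresh WT cells, Phlda3 was called in WT (adjusted p = 0.0120) and over both genotypes (adjusted p = 0.00367). With limma voom and library weights it was called over both genotypes (adjusted p = 0.0458).

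The last 3 members had few counts. Zmat3, an RNA-binding zinc finger protein, had 7.86, 18.9 and 9.48 CPM in KO vehicle cultures, against 0.456 and 0 CPM in fresh KO cells. In WT it had 4.85, 3.91 and 5.91 CPM in vehicle cultures, against 0, 6.20 and 2.22 CPM in fresh cells. The KO groups did not overlap and the WT groups did, at log2 fold changes of 5.65 in KO (SE 2.80, adjusted p = 0.469) and 0.92 in WT (SE 1.92, adjusted p = 0.952). Trp53inp1 encodes a stress protein that takes part in p53 activation and autophagy. It had 0, 1.01 and 1.75 CPM in WT vehicle cultures, all below the 24.0, 9.85 and 13.6 CPM of fresh WT cells, at a log2 fold change of -3.99 (SE 1.92, adjusted p = 0.433). In KO it had 1.48, 12.6 and 9.44 CPM in vehicle cultures, against 11.2 and 11.6 CPM in fresh cells, and its log2 fold change was -0.50 (SE 1.88, adjusted p = 0.995). Eda2r, a receptor of the TNF receptor family, had log2 fold changes of 1.39 in KO (SE 2.81, adjusted p = 0.956) and -2.13 in WT (SE 2.52, adjusted p = 0.843).

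The gene of p53 itself, Trp53, was raised by less than its target Cdkn1a. It had 446, 367 and 408 CPM in KO vehicle cultures, against 334 and 325 CPM in fresh KO cells. WT cells had 499, 458 and 475 CPM in vehicle cultures, against 327, 342 and 363 CPM in fresh cells. All vehicle libraries lay above all fresh ones, with a log2 fold change over both genotypes of 0.45 (SE 0.11, adjusted p = 0.0226 by edgeR). The call was made in 14 of 20 alternatives. It was lost with RLE size factors (adjusted p = 0.0571), without a filter (adjusted p = 0.0778), and without KO fresh replicate 2, KO vehicle replicate 1 or 3, or WT fresh replicate 2 (adjusted p between 0.05004 and 0.0672). Neither genotype passed alone, at 0.33 in KO (adjusted p = 0.468) and 0.57 in WT (adjusted p = 0.0708). Mdm4, a relative of Mdm2 that inhibits p53, Ppm1d, a phosphatase that switches p53 off, and Atm, a kinase that activates it, did not pass in KO, in WT or over both genotypes by edgeR, though DESeq2 called Mdm4 in WT (adjusted p = 0.00499). Mdm4 had 58.8, 55.5 and 64.4 CPM in WT vehicle cultures, all below the 125, 108 and 107 CPM of fresh WT cells, at a log2 fold change of -0.83 (SE 0.28, adjusted p = 0.212). In KO the groups overlapped, at 0.02 (SE 0.31, adjusted p = 1.00). Over both genotypes the log2 fold change was 0.21 for Ppm1d (SE 0.87, adjusted p = 0.983) and 0.47 for Atm (SE 0.46, adjusted p = 0.664).

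Other genes of the pathway were read from lists of known p53 regulators, further p53 targets, apoptosis genes and further CDK inhibitors. The apoptosis list held BCL2 family and caspase genes and some others, among them Cycs. A last list held genes of G2 and mitosis that p53 is known to lower through p21 and the DREAM complex. Of all tested genes, 4.18% rose over both genotypes and 2.3% fell. Of 44 further p53 targets tested, 1 rose over both genotypes and the others did not pass. Their median log2 fold change was 0.20, beside -0.07 over all genes. The 1 that rose was Gtse1, a G2 and S phase protein that binds p53, at 84.1 ± 15.7 CPM in vehicle cultures (SD, n = 6) and 25.3 ± 18.4 CPM in fresh cells (SD, n = 5), adjusted p = 0.0138. Its call was lost without KO fresh replicate 1 (adjusted p = 0.0762). Of 21 p53 regulators, Trp53 rose and Rchy1, a ubiquitin ligase of p53, fell, at 29.9 ± 13.3 CPM in vehicle cultures (SD, n = 6) and 74.5 ± 31.4 CPM in fresh cells (SD, n = 5), adjusted p = 0.0274. The call of Rchy1 was made in 13 of 20 alternatives, and without KO fresh replicate 1 its adjusted p was 0.140.

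Among 22 genes of the apoptosis list, 1 rose and 1 fell over both genotypes, where 4.18% of all tested genes rose and 2.3% fell. The 1 that rose, Cycs, is neither a BCL2 family gene nor a caspase. Cycs, which encodes cytochrome c, rose to 219.8 ± 23.7 CPM in vehicle cultures (SD, n = 6), against 105 ± 29.8 CPM in fresh cells (SD, n = 5), adjusted p = 0.00313, and passed in all 20 alternatives. Casp6, an executioner caspase, fell to 29.0 ± 9.30 CPM in vehicle cultures, against 78.6 ± 22.6 CPM in fresh cells, adjusted p = 0.0164, lost without KO fresh replicate 1 (adjusted p = 0.122). Among 6 CDK inhibitors other than Cdkn1a, 1 passed: Cdkn1c, which encodes p57 and is known for holding HSCs quiescent, was lower in culture, opposite in sign to Cdkn1a. It averaged 20.4 ± 8.14 CPM in vehicle cultures (SD, n = 6) and 89.5 ± 46.1 CPM in fresh cells (SD, n = 5), at a log2 fold change of -2.09 (SE 0.45, adjusted p = 0.0109). All vehicle libraries lay below all fresh ones, and the call was lost without KO fresh replicate 1 (adjusted p = 0.0668).

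The 24 genes of G2 and mitosis moved upward together with Cdkn1a across the states. Over both genotypes 15 rose and 9 did not pass, where 4.18% of all tested genes rose. In KO 7 rose and in WT 6 rose, where 1.23% of all tested genes rose in each. All 24 log2 values were above 0 in each genotype. The median log2 fold change was 1.83 in KO and 1.11 in WT, beside -0.02 and -0.07 over all tested genes. Plk1, a mitotic kinase, averaged 198 ± 29.9 CPM in vehicle cultures (SD, n = 6) and 43.2 ± 19.1 CPM in fresh cells (SD, n = 5), adjusted p = 3.87e-05. Top2a, which untangles DNA before division, averaged 465 ± 66.0 CPM in vehicle cultures and 194 ± 75.3 CPM in fresh cells, adjusted p = 5.87e-05. Cdk1, the kinase that drives entry into mitosis, averaged 273 ± 39.2 CPM in vehicle cultures and 98.4 ± 27.0 CPM in fresh cells, adjusted p = 0.000422. Aurkb, Ccna2 and Mybl2 passed as well, and these 6 passed over both genotypes in all 20 alternatives.

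**Figure D3:**
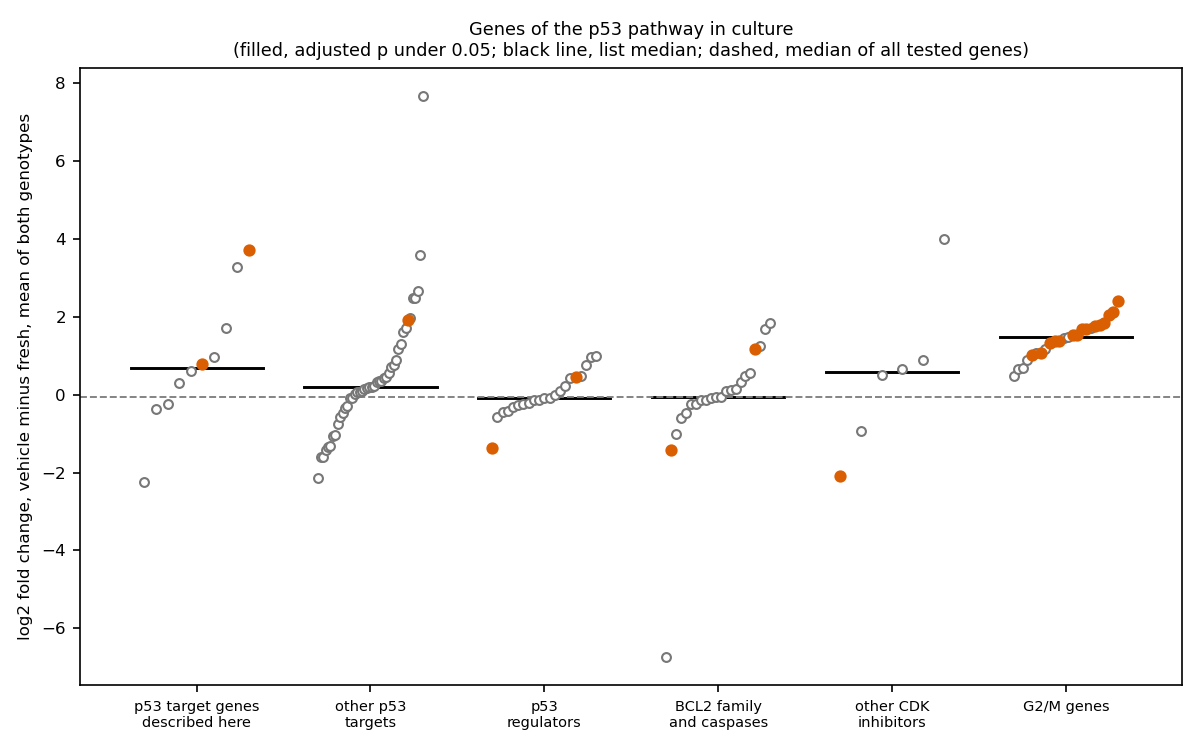
Log2 fold change of vehicle culture over fresh cells, mean of both genotypes (vertical axis), for each tested gene of 6 lists, sorted within a list, with filled symbols for an adjusted p under 0.05, black lines as list medians and a dashed line as the median of all tested genes at -0.07. In the list of G2 and mitosis genes 15 of 24 are filled and all lie above 0, whereas 1 of 44 further p53 targets is filled.

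Within the cultured libraries, however, Cdkn1a and the G2 and mitosis genes ran in opposite directions. This relation was examined after the values were seen, a choice that the adjustment over 3 relations does not cover. The permutations exchanged libraries across genotypes and treatments, as if they were replicates of 1 condition. Over the 11 cultured libraries, in log2(CPM + 1), the level of Cdkn1a and the summed level of the 24 genes had a Pearson r of -0.86 (permutation test, two-sided p = 0.00141, adjusted p = 0.00423 over 3 relations) and a Spearman rho of -0.82 (permutation p = 0.00334, adjusted p = 0.0100). Without the 2 libraries farthest from the median sum, WT vehicle replicate 2 and the sparse WT PSGL-1 replicate 1, r was -0.74 over 9 libraries (permutation p = 0.0215), and without the sparse library alone r was -0.83 over 10. Within the 6 cultured KO libraries r was -0.64, and no r was computed over the 5 cultured WT libraries. Of those 5, the 3 with Cdkn1a at 164 to 243 CPM had sums of 3356 to 4038 CPM, and the other 2, with Cdkn1a at 93.5 and 97.7 CPM, had sums of 4832 and 4688 CPM. The 4 libraries with the highest Cdkn1a, WT PSGL-1 replicate 1 at 243 CPM, WT vehicle replicate 2 at 239.7 CPM, KO vehicle replicate 2 at 225 CPM and WT vehicle replicate 1 at 164 CPM, had sums of 3445, 3356, 3827 and 4038 CPM. The 4 with the lowest, at 93.5 to 105 CPM, had sums of 4474 to 4832 CPM. Between them lay KO vehicle replicate 3 at 145 CPM with a sum of 4192 CPM and KO PSGL-1 replicate 3 at 110.0 CPM with 4839 CPM. KO PSGL-1 replicate 2, also between them at 135 CPM, departed from the order with a low sum of 3467 CPM. All libraries share the scaling to a total, and the labels name no batch.

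The number of detected genes moved with Cdkn1a too, at a Pearson r of -0.69 over the same 11 libraries (permutation p = 0.0128, adjusted p = 0.0191) and a Spearman rho of -0.71 (permutation p = 0.0182, adjusted p = 0.0273). Without the same 2 libraries r was -0.34 over 9 (permutation p = 0.370), so that this relation rested on them. The part of library complexity in the relation with G2 and mitosis genes was not tested. Between Cdkn1a and Trp53 the Pearson r was 0.15 (permutation p = 0.658, adjusted p = 0.658) and the Spearman rho 0.13 (permutation p = 0.715, adjusted p = 0.715), and r without the 2 libraries farthest in Trp53 was 0.16. Within the 6 cultured KO libraries alone that r was -0.78, and without the sparse library it was -0.17 over 10.

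**Figure D4:**
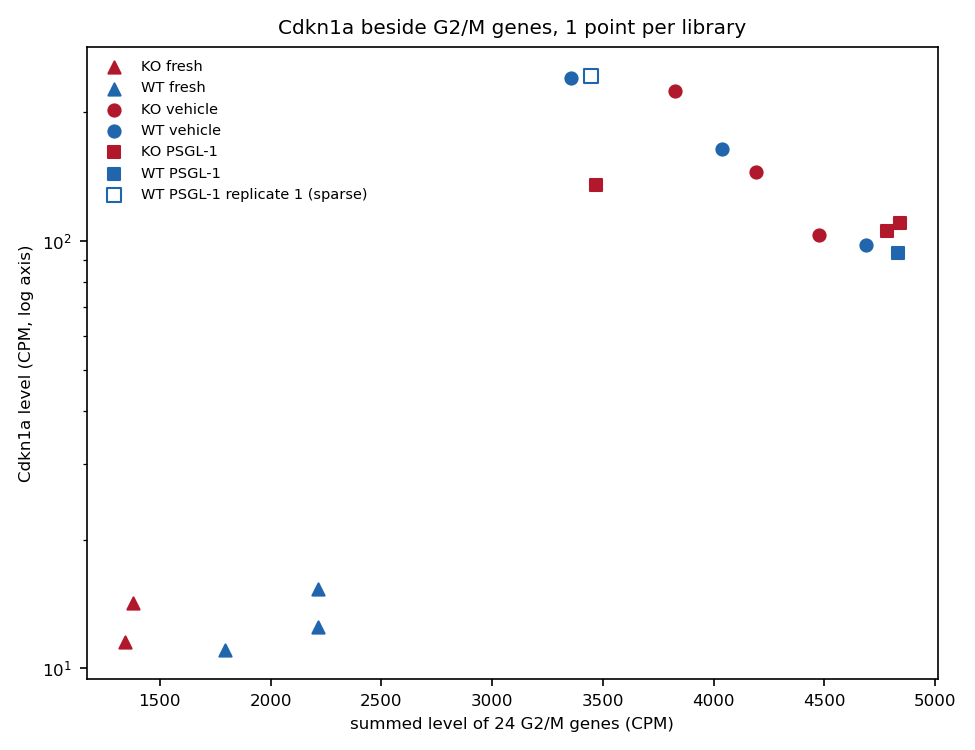
Level of Cdkn1a (vertical log axis, CPM) against the summed level of 24 G2 and mitosis genes (horizontal axis, CPM), 1 point per library, with KO in red, WT in blue, triangles for fresh, circles for vehicle, squares for PSGL-1 and an open square for the sparse library. Fresh libraries sit at sums of 1345 to 2215 CPM and low Cdkn1a, and the 11 cultured ones at 3356 to 4839 CPM fall from upper left to lower right.

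Genes whose level was most like that of Cdkn1a were ranked by Pearson r in log2(CPM + 1) over all 16 libraries, among the 10675 genes whose mean reached 5 CPM. The values describe a split between fresh and cultured libraries, which the points share. The highest were Sqle (0.97), a sterol synthesis enzyme, Spp1 (0.97), which encodes osteopontin, Chsy1 (0.96), a chondroitin synthase, Fdps (0.96), a farnesyl diphosphate synthase, and S100a4 (0.96), a calcium-binding protein. The lowest were Gimap6 (-0.97), a GTPase of the immune-associated family, Txnip (-0.97), a thioredoxin inhibitor, and Socs2 (-0.97), a feedback inhibitor of cytokine signalling. No other member was among these 8. Within the 11 cultured libraries alone r was -0.87 for Txnip, 0.76 for Spp1 and 0.72 for Fdps, and it was 0.43 for S100a4. For Sqle it was 0.59, for Chsy1 0.48, for Gimap6 -0.68 and for Socs2 -0.67.

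PSGL-1, the ligand of the deleted receptor, was added to ask how HSCs respond to it with and without P-selectin. By edgeR 0 of the 10 members passed in KO and 0 in WT, where 0% of all genes were called in each. By DESeq2, too, 0 members passed in either genotype, and by limma voom with library weights 0. At an unadjusted p under 0.05 there was 1 member in KO, among 198 of all genes, and 1 in WT, among 803. Cdkn1a had 105, 135 and 110.0 CPM in KO PSGL-1 cultures, against 103, 225 and 145 CPM in KO vehicle cultures. In WT PSGL-1 cultures it had 243 CPM in the sparse library and 93.5 CPM in the other, against 164, 239.7 and 97.7 CPM in WT vehicle cultures. The groups overlapped in both genotypes, at log2 fold changes of -0.44 in KO (SE 0.38, adjusted p = 1.00) and 0.00 in WT (SE 0.43, adjusted p = 1.00). In WT the value was -0.82 without the sparse library and 0.50 without the other one.

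Mdm2 was the member with an unadjusted p under 0.05 in KO. It had 76.2, 73.4 and 81.4 CPM in KO PSGL-1 cultures, all above the 48.9, 38.1 and 37.5 CPM of KO vehicle cultures, where 4.24% of all genes lay wholly higher. The log2 fold change was 0.89 (SE 0.40, unadjusted p = 0.0410, adjusted p = 1.00 by edgeR). In WT it had 20.3 CPM in the sparse PSGL-1 library and 51.9 CPM in the other, against 46.1, 89.7 and 55.8 CPM in vehicle cultures, at a log2 fold change of -0.82 (SE 0.45, adjusted p = 0.774). The responses of KO and WT differed by 1.71 on the log2 scale (SE 0.60, adjusted p = 1.00), which did not pass. With WT PSGL-1 replicate 2 left out, so that the sparse library alone stood for that group, the WT response was -1.70 (adjusted p = 0.0260) and the difference 2.58 (adjusted p = 0.00639). Without the sparse library they were -0.29 (adjusted p = 1.00) and 1.17 (adjusted p = 1.00).

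Ccng1 was the member with an unadjusted p under 0.05 in WT. It had 156 CPM in the sparse and 111 CPM in the other WT PSGL-1 library, both above the 63.5, 45.7 and 92.2 CPM of WT vehicle cultures, where 5.87% of all genes lay wholly higher and 8.1% wholly lower. The log2 fold change of Ccng1 was 0.97 in WT (SE 0.42, adjusted p = 0.774). In KO, Ccng1 had 48.1, 111 and 137 CPM in PSGL-1 cultures, against 66.7, 90.5 and 90.8 CPM in vehicle cultures, and the groups overlapped. Phlda3 was the other member whose WT PSGL-1 libraries lay wholly higher, at 104 CPM in the sparse and 23.7 CPM in the other, with a log2 fold change of 1.86 (SE 1.64, adjusted p = 0.837). The members' median log2 fold change on PSGL-1 was 0.11 in KO and 0.57 in WT, beside 0.00 and -0.11 over all tested genes.

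KO against WT was compared to ask whether loss of Selp changes the p53 targets in a given state. By edgeR 0 of 10 members passed in fresh cells, 0 in vehicle and 0 in PSGL-1 cultures, where 0.00708% of all genes passed in each. DESeq2 and limma voom with library weights also called 0 members in each state. At an unadjusted p under 0.05 there were 0 members in fresh cells, 0 in vehicle cultures and 1 in PSGL-1 cultures, among 401, 400 and 820 of all genes. The difference of the culture response called 0 members at 0% of all genes, with 0 members and 353 genes at an unadjusted p under 0.05. The difference of the PSGL-1 response called 0 members at 0% of all genes, with 1 member, Mdm2, and 611 genes at an unadjusted p under 0.05. DESeq2 and limma called 0 members in both. In the fresh state Cdkn1a was at 12.9 ± 1.91 CPM in KO (SD, n = 2) and 12.9 ± 2.18 CPM in WT (SD, n = 3), a log2 fold change of 0.04 (SE 0.43, adjusted p = 1.00). In vehicle cultures the log2 fold change of Cdkn1a was -0.09 (SE 0.38, adjusted p = 1.00) and in PSGL-1 cultures -0.53 (SE 0.42, adjusted p = 0.795). The sign in PSGL-1 cultures turned on the sparse library, since without it the value was 0.29.

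The member with an unadjusted p under 0.05 in PSGL-1 cultures was again Mdm2, at the KO and WT values given above. Its 3 KO libraries lay above both WT ones, where 11.5% of all genes did so, and the log2 fold change was 1.07 (SE 0.46, adjusted p = 0.765). It was 1.95 (adjusted p = 0.0126) with WT PSGL-1 replicate 2 left out and 0.55 (adjusted p = 1.00) without the sparse library. Without WT PSGL-1 replicate 2, Trp53inp1 was called too, at 10.59 (adjusted p = 0.0478), its lone WT library standing at 0 counts. No member lay wholly lower in KO PSGL-1 cultures, as 6.32% of all genes did. In fresh cells Eda2r was the 1 member whose KO libraries lay wholly higher, where 9.1% of all genes lay wholly higher and 9.95% wholly lower. In vehicle cultures Zmat3 was the 1 such member, where 5.76% lay wholly higher and 3.72% wholly lower.

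Eda2r (chrX:97333837-97377234) had its counts mostly in KO libraries, though with large spread. In KO it had 3.87 and 1.70 CPM in fresh cells, 4.83, 17.1 and 0 CPM in vehicle cultures and 8.26, 1.03 and 0.121 CPM in PSGL-1 cultures. In WT it had 0, 0.794 and 0.429 CPM in fresh cells, 0.240, 0 and 0 CPM in vehicle cultures and 0 and 0.888 CPM in PSGL-1 cultures. Of the 8 KO libraries 6 were above every WT library, while KO vehicle replicate 3 had no count. Averaged over the 3 conditions, a comparison added after the data were seen, the log2 fold change was 3.99 (SE 1.74, unadjusted p = 0.0362, adjusted p = 0.702 by edgeR), where 0.0354% of all genes passed. No member passed there, 1 member and 966 genes had an unadjusted p under 0.05, and DESeq2 and limma called 0 members. Within single states Eda2r had log2 fold changes of 2.84 in fresh cells (SE 2.72), 6.37 in vehicle cultures (SE 3.04) and 2.76 in PSGL-1 cultures (SE 3.01), each with adjusted p between 0.870 and 1.00.

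**Figure D5:**
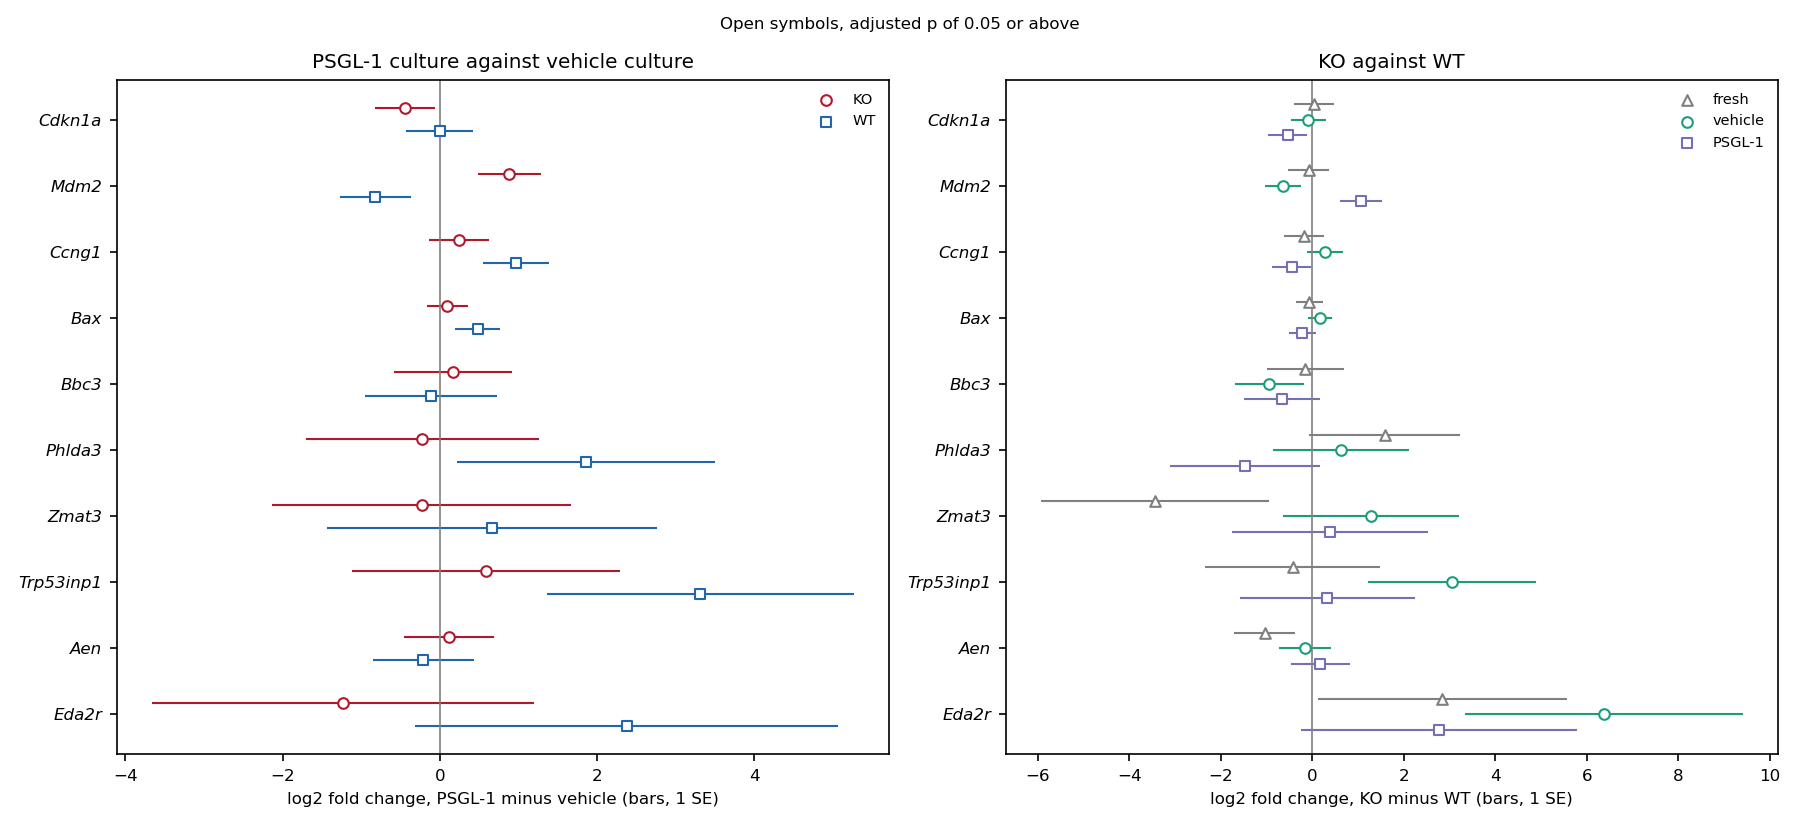
Log2 fold change of the 10 members (horizontal axes) on PSGL-1 over vehicle culture (left, KO as red circles above WT as blue squares) and in KO over WT (right, fresh, vehicle and PSGL-1 from top to bottom), with bars of 1 SE and open symbols throughout, since no adjusted p is under 0.05. Mdm2 lies at 0.89 in KO and -0.82 in WT on the left, and Eda2r lies above 0 in all 3 states on the right.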

How the data were processed

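The authors deposited raw read counts per gene symbol, 1 column per library. Per the labels' protocols, RNA came from a micro-scale column kit and libraries from the SMART Ultra-Low Input kit, and the tools STAR 2.7.5c and featureCounts, with build mm10, come from the submitters' processing notes. Strand setting and handling of multi-mapping reads are not stated there. Counts were scaled by TMM and fitted in 1 edgeR 4.0.16 quasi-likelihood model (robust, 1 mean per group, 16 libraries, R 4.3.3) over the 14124 of 25239 genes passing filterByExpr, with Benjamini-Hochberg adjustment over all of them and a threshold of 0.05. The SE of a log2 fold change was derived from its F statistic. CPM are counts per library total. TPM used the union of exons of GENCODE M21 (24366 symbols, at least 97.1% of counts). Alternatives were DESeq2 1.42.0, RLE factors, no filter, a filter at a mean of 5 CPM, a minimum of 1.5-fold, groups compared alone, replicate blocks, each library left out and, added after seeing the data, limma 3.58.1 voom with library weights, fits without the sparse library and 2 averaged comparisons. The scripts were tested on simulated data, with 50 changed genes for each size of change. For vehicle culture over fresh cells, 2-fold changes were recovered in 0% of cases in KO, 2% in WT and 22% over both genotypes. For 4-fold changes these shares were 22%, 28% and 50%. A gene that did not pass may therefore still have changed by such an amount. Promoter windows were searched for the p53 decamer, which is its own reverse complement, so that 1 scan covered both strands. The members, gene lists and rule for named genes (all members, Trp53, Mdm4, Ppm1d, Atm, called list genes, the genes most like Cdkn1a) were chosen with earlier results of these data known. No 2 libraries of a group agreed within sampling noise (smallest chi-square per degree of freedom 60.2). 1 marker gene is not reported here and was left out of the marker sums.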

Additional observations from a re-analysis of the deposited data

How the results depend on the processing

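Cdkn1a rose on vehicle culture with every alternative in WT (15) and over both genotypes (20), and in KO with 13 of 14. For the values of single genes, 786 alternatives with all libraries kept direction and side of the threshold, 26 lost the call, 6 gained it and 15 changed sign. Among fits without 1 library these numbers were 975, 94, 10 and 33. They cover the genes and comparisons whose values the text gives. Of 63 further member values, 36 changed sign in some alternative, in 72 of 1049 alternatives. DESeq2 called more of all genes: 831 in KO, 797 in WT and 1780 over both genotypes on vehicle culture, 2334 with both cultures against fresh cells, 41 in KO and 229 in WT on PSGL-1, 93, 111 and 250 in KO against WT in fresh, vehicle and PSGL-1 cells, 241 over the 3 conditions, 69 for the difference of the culture response and 118 for that of the PSGL-1 response. With limma voom and library weights, added after seeing the data, the counts were 542 in KO, with 0 members, 706 in WT and 1896 over both genotypes on vehicle culture, and 7, 3 and 0 in KO against WT in fresh, vehicle and PSGL-1 cells. With a minimum of 1.5-fold they were 96, 65 and 254 on vehicle culture in KO, WT and both, 412 with both cultures and 2 in KO against WT over 3 conditions, with 1 member called over both genotypes and 1 with both cultures. Groups compared alone gave 1455 over both genotypes, 2 in KO against WT fresh cells and 0 in PSGL-1 cultures, and no filter gave 3 in fresh cells.

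Over all groups, the replicate numbers showed no clear pairing (correlations of same-numbered libraries between -0.072 and 0.076). With libraries grouped in runs of 6 by library number, every same-run pair of vehicle and PSGL-1 cultures within a genotype was positively correlated. The highest, WT vehicle replicate 3 with WT PSGL-1 replicate 2, lay above that range. Other same-run pairs had either sign. Whether the cultures were paired by run cannot be told from these values. The replicate block, fitted all the same, called 788 genes and the 2 members over both genotypes, and by library number 819. With the replicate block the Mdm2 culture value in WT was -0.0056, that of Cdkn1a on PSGL-1 in WT -0.054, in KO over WT fresh cells -0.088 and in the difference of culture responses 0.035. By library number Mdm4 in KO was -0.056 and Cdkn1a on PSGL-1 in WT -0.085.

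Other values changed sign with all libraries kept. Mdm2 in WT culture was -0.022 with DESeq2, -0.022 with RLE, -0.026 without a filter and -0.11 with limma, and Mdm4 in KO culture -0.052 with DESeq2, -0.052 with RLE and -0.043 without a filter. Cdkn1a on PSGL-1 in WT was -0.0087 with the stricter filter, and Eda2r in KO culture, 1.39 by edgeR, was -0.41 with limma. The cause was not tested.

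Leaving out 1 library gave these ranges. On vehicle culture, members called ran from 1 to 2 in KO, in WT and over both genotypes, and all genes called from 76 to 554 in KO, 85 to 440 in WT and 552 to 1566 over both, with 771 to 3770 for both cultures. The lowest counts came without KO fresh replicate 1 (KO, both genotypes, both cultures) and WT fresh replicate 2 (WT). Without WT PSGL-1 replicate 2 the sparse library stood alone, and the counts reached 2955 on PSGL-1 in WT (0 at lowest), 2979 in KO over WT PSGL-1 cultures (1 at lowest), 2370 for the difference of PSGL-1 responses (0 at lowest) and 2272 over 3 conditions (4 at lowest), with 0 to 1, 0 to 2, 0 to 1 and 0 to 1 members. KO against WT gave 1 to 83 in fresh and 1 to 8 in vehicle cells, and the difference of culture responses 0 to 31. Log2 values that changed sign were Cdkn1a in KO over WT (-0.079 to 0.19 fresh, -0.44 to 0.25 vehicle, -1.03 to 0.29 PSGL-1, -0.36 to 0.079 over 3 conditions), on PSGL-1 in WT (-0.82 to 0.50) and in the differences of culture (-0.47 to 0.22) and PSGL-1 responses (-0.95 to 0.38). On vehicle culture they were in WT Mdm2 (-0.28 to 0.23), Ccng1 (-0.26 to 0.30) and Atm (-0.020 to 1.34), in KO Bbc3 (-0.12 to 0.65), Eda2r (-0.21 to 2.19), Mdm4 (-0.12 to 0.19) and Ppm1d (-0.51 to 0.22), and over both genotypes Eda2r (-2.14 to 0.081) and Ppm1d (-0.077 to 0.43). With both cultures Eda2r ran from -1.55 to 0.36. With both cultures, Zmat3 was called by DESeq2 alone (adjusted p = 0.0327) and Trp53inp1 without WT PSGL-1 replicate 2 alone (-3.83, adjusted p = 0.0218).

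Zmat3, Trp53inp1, Eda2r and Phlda3 each had libraries at 0 counts, and the SE of their log2 fold changes on vehicle culture lay between 1.55 and 2.81 in KO and WT.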
